A study of Drosophila melanogaster with 39 samples.

Results

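The cytosolic ribosomal protein genes of the fly were followed through single heads of flies sorted by electric shock and place preference. The set was taken by name from the count table, as every gene named RpL or RpS with a number, together with RpLP0, RpLP1, RpLP2 and sta, and held 92 of 17559 genes (53 of the large and 39 of the small ribosomal subunit). The rule by name used no measured value, but the set itself was chosen with earlier results of these data known. Each library came from the polyadenylated RNA of 1 head, and every fly was an adult male of Drosophila melanogaster. All carried the genotype Cantonized w1118, in which the eyes are white, and were reared at 25 °C, 60% humidity and a cycle of 12 h light and 12 h dark. The groups were naive Mid (n = 7), naive High (n = 7), shocked High (n = 6), shocked Mid (n = 8) and shocked Low (n = 9), named by shock and by a class of place preference whose bounds the sources used here do not give. There was no naive Low group. The protocol gives electric shocks of 60 V for 5 min, a preference assay at 1.5 h and freezing at 2.5 h, in identical wording for all samples, and the titles alone say which flies were naive. Preference was assayed after the shock, so shocked and naive heads of 1 class may be differently selected flies, and that selection and an effect of shock cannot be told apart.

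Ribosomal proteins assemble with ribosomal RNA into the small subunit, which reads the mRNA, and the large subunit, which joins amino acids. Because the finished particle holds nearly all of them in equal number, their genes are usually expressed together, and in animals their mRNAs share a short pyrimidine tract at the 5′ end through which growth signalling controls their translation. Most fly ribosomal proteins come from 1 gene each; the exceptions are a few duplicated genes, of which several extra copies are known mainly from the germ line.

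Libraries held 5010301 to 11317047 counts, with a median of 7650392. The photoreceptor list (21 genes such as the opsin gene ninaE) and the pan-neuronal list (17 genes such as elav and brp) were detected in every group, as a head should show, and 13 genes of the male accessory gland and testis summed to between 4.18 and 12.5 CPM (counts scaled to a common library size) per head. Fat body genes varied between heads, from a summed level of 1163 CPM in the shocked Low group to 11320 CPM in the shocked Mid group. In whole heads, fewer cells of a type and less RNA per cell cannot be told apart.

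Ribosomal protein genes took 6.41% ± 0.807 (SD, n = 37) of all counts, between 5.03% and 8.52% per head. Of the 92 genes, 83 passed the filter on low counts, and 53 of these 83 were among the 200 most abundant genes tested. Their mean levels ran from 30.6 to 1742 CPM with a median of 712 CPM, beside 27.96 CPM for the other genes tested. Per kilobase of annotated transcript, RpL31 averaged 1669 CPM, followed by RpL7A with 1583, RpLP1 with 1551 and RpL41 with 1494 CPM per kilobase. RpL31 and RpL7A belong to the large subunit. RpL41 encodes the shortest ribosomal protein, and RpLP1 encodes an acidic protein of the stalk that recruits elongation factors.

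The 9 genes that did not pass the filter were extra copies read at or near 0. Summed over all 37 heads, RpL7-like and RpL10Aa gave 2 counts each, RpL37b gave 3, RpS28a 7, RpL22-like 8, RpS19b 12, RpS28-like 14, RpS10a 45 and RpS5b 102. RpL22-like is known from the testis, and RpS5b and RpS19b from the ovary. The highest single value was 22 counts of RpS5b, in naive High head 3.

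The ranges of the summed level of the 92 genes over heads overlapped between all 5 groups. It ran from 54280 through a median of 60035 to 68628 CPM in naive Mid heads, and from 63715 through 72140 to 79953 CPM in shocked Mid heads. Naive High heads ran from 50685 through 63561 to 82952 CPM, and shocked High heads from 50701 through 56652 to 79374 CPM. Shocked Low heads ran from 48551 through 63024 to 75031 CPM. The shocked Mid group had the highest mean, 71240 ± 5632 CPM (SD, n = 8), and all 8 of its heads were above the naive Mid mean of 61670 ± 5619 CPM (n = 7), although the ranges overlapped and only 5 lay above every naive Mid head. Shocked High averaged 59480 ± 10700 CPM (n = 6), and 5 of its 6 heads lay below every shocked Mid head. Shocked Low averaged 62600 ± 8887 CPM (n = 9), with 5 of 9 heads below every shocked Mid head, and naive High 65380 ± 11310 CPM (n = 7). The ratio of geometric means was 1.16 for shocked over naive Mid, 0.910 for shocked over naive High and 0.827 for shocked High over shocked Mid, beside a pooled SD within groups of 0.19 on the log2 scale. No p was computed for this sum.

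**Figure D1:**
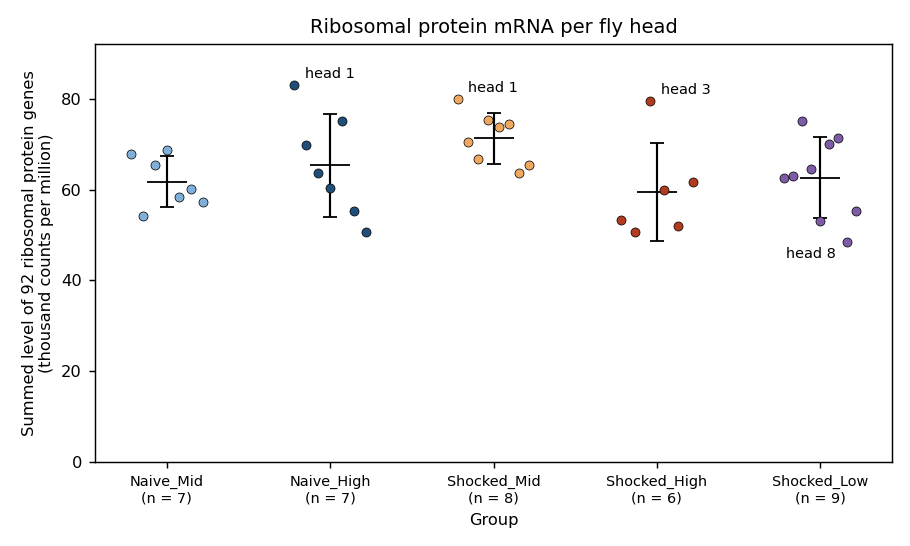
Summed level of the 92 ribosomal protein genes (y axis, CPM in units of 1000, from 0) in each of 37 heads (points) by group (x axis), with the group mean as a line and the SD as whiskers. The 8 shocked Mid heads sit between 63715 and 79953 CPM, and naive High head 1 (82952 CPM), shocked High head 3 (79374 CPM) and shocked Low head 8 (48551 CPM) lie at the ends of their groups.

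For shock within the Mid class, all 83 tested genes had a positive value. Their log2 fold changes (shocked over naive) ran from 0.05 to 0.39 with a median of 0.21, beside a median of 0.01 over all 10272 genes tested, of which 52.6% were positive. None of the 83 passed edgeR's quasi-likelihood test at an adjusted p of 0.05, where 0.0195% of all genes did. At an unadjusted p under 0.05 there were 38 of the 83, against 13.1% of all genes. The 83 genes moved largely together from head to head, so counts over them, here and in the other comparisons, are not counts of independent results. DESeq2 and limma voom also called 0 of the 83. Large and small subunit genes had medians of 0.20 (49 genes) and 0.22 (34 genes).

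The smallest p-values within Mid belonged to RpS28b, RpL22 and RpS14b, named here as not passing. RpS28b, a small-subunit gene, was read at 334 to 548 CPM (median 443) in naive Mid and at 485 to 727 CPM (median 537) in shocked Mid heads. These ranges overlapped, and the log2 fold change was 0.37 ± 0.11 (SE), with an edgeR adjusted p of 0.206. RpL22, whose fly protein carries an extension similar to a linker histone, ran from 393 to 583 CPM (median 492.9) in naive and from 533 to 766 CPM (median 628) in shocked heads. Its log2 fold change was 0.38 ± 0.11, with an edgeR adjusted p of 0.206. RpS14b, the lesser of a tandem pair of small-subunit genes, ran from 222 to 278 CPM (median 250) and from 271 to 396 CPM (median 298). The ranges met only at their edges, with a log2 fold change of 0.31 ± 0.10 and an edgeR adjusted p of 0.209.

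The authors' deposited table, made with DESeq2, lists 13 of the 92 genes at a q-value under 0.05 for shocked Mid over naive Mid, among 283 of 15947 genes. The smallest q in the authors' deposited table was 0.00798 for RpL36 (log2 0.38), followed by 0.0118 for RpL22. In the fit here RpL36 had a log2 fold change of 0.39 ± 0.13 and an edgeR adjusted p of 0.215.

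Genes outside the set moved beside them in the same comparison. Of 13 fat body genes tested, 9 were positive, with a median of 0.40, and of 11 antennal genes 10 were, with a median of 0.59. All 17 pan-neuronal genes were negative, with a median of -0.15. Of 67 other genes with short transcripts, 54 were positive, with a median of 0.11. These 67 are not fully separate from the set. CR31144 and CR45874 each overlap exons of a ribosomal protein gene on the opposite strand, and Ef1beta is also in the list of translation factors given below. With the fat body level of each head as a covariate the median over the ribosomal protein genes was 0.093, and with the short-transcript level it was 0.14. No covariate was fitted for the antennal level. The part of any of these in the result was not tested.

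Within the High class the lean was the other way. After shock 82 of 83 genes were negative, with a median of -0.14 and a range from -0.24 to 0.03, beside a median of -0.01 and 51.7% negative and 48.3% positive over all genes. None was called by edgeR (0% of all genes), none had an unadjusted p under 0.05 (5.66% of all genes), and DESeq2 and limma voom called none. The smallest p-values belonged to RpL34b, RpS27 and RpS15. RpL34b, the major of a pair of large-subunit genes, ran from 376 to 664 CPM (median 535) in naive and from 413 to 546 CPM (median 435) in shocked High heads, with shocked heads inside the naive range (log2 -0.21 ± 0.10, edgeR adjusted p 0.863). RpS27 and RpS15 of the small subunit had log2 fold changes of -0.23 ± 0.12 and -0.20 ± 0.11. Without naive High head 1 the median was -0.07, and without shocked High head 3 it was -0.23. Fat body genes had a median of -0.29, with 11 of 13 negative, and with their level as a covariate the median of the ribosomal protein genes was 0.03. The antennal genes had a median of -0.55, with 7 of 11 negative.

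Whether the response to shock differed between the classes was tested as an interaction. All 83 genes were more negative in High than in Mid, with a median difference of -0.34 on the log2 scale, beside -0.01 for all genes, of which 52.3% were negative and 47.7% positive. None passed the edgeR test (0% of all genes did), 51 had an unadjusted p under 0.05 (12.3% of all genes), and neither DESeq2 nor limma voom called any. RpS28b had a difference of -0.54 ± 0.16 (edgeR adjusted p 0.277), RpS14b of -0.43 ± 0.14 and RpS15 of -0.44 ± 0.16. With the fat body level as a covariate the median was -0.06. The fat body genes themselves had a median difference of -0.82, and the antennal genes one of -0.93, with 9 of 11 negative.

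**Figure D2:**
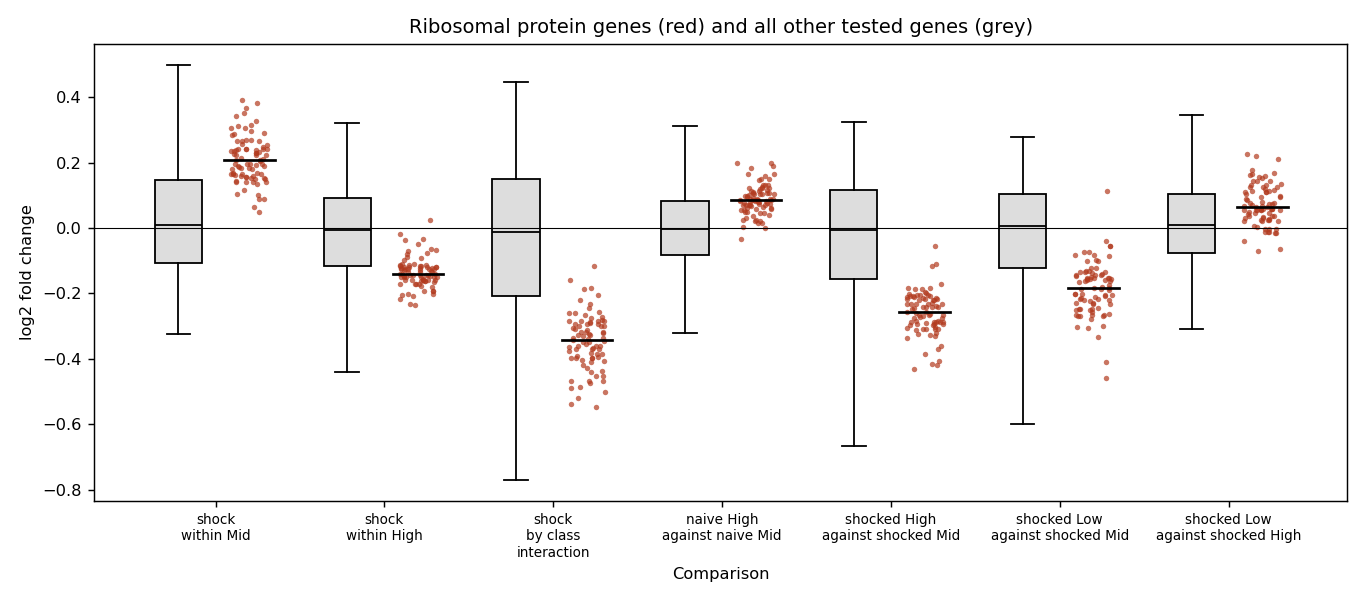
Log2 fold change (y axis) in 7 comparisons (x axis) for the 83 tested ribosomal protein genes (red points, black bar at the median) and for the other tested genes (grey boxes with quartiles and median, and whiskers that leave out the outer tails). The red points lie at or above 0.05 for shock within Mid and below 0 for all 83 genes in the interaction and in shocked High against shocked Mid, and their medians stay within -0.34 and 0.21.

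Naive High and naive Mid heads had no shock in their titles. The median was 0.09, with 82 of 83 genes positive beside 49.6% of all genes, which were negative in 50.4%, and edgeR, DESeq2 and limma voom called none (0% of all genes by edgeR). No member had an unadjusted p under 0.05, against 3.09% of all genes. The smallest p-values belonged to RpS15Ab (0.20 ± 0.11), RpS28b (0.20 ± 0.11) and RpS14b (0.17 ± 0.10, edgeR adjusted p 1.00 for each). Naive High head 1 decided much of this value: without it the median was 0.03.

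Among shocked flies, the set was lower in High than in Mid heads in all 83 genes. The median was -0.26, with a range from -0.43 to -0.05, beside -0.01 and 51.8% negative and 48.2% positive over all genes. EdgeR called 0 of 83 (0.0681% of all genes), with 52 at an unadjusted p under 0.05, against 17.5% of all genes. Other tools and a left-out head gave other counts. DESeq2 called 3 genes lower, limma voom with quality weights called 47, and edgeR without shocked High head 3 called 34. The shares of all genes called under those settings are not given here, so the counts cannot be read as particular to the set. Among the genes called by DESeq2 were RpL10 and RpS3A.

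RpL10, a large-subunit protein placed late in assembly near the catalytic centre, ran from 666 to 988 CPM (median 699) in shocked High and from 913 to 1272 CPM (median 980) in shocked Mid heads. Only shocked High head 3 reached the range of the Mid heads. The log2 fold change was -0.43 ± 0.13, with an adjusted p of 0.0935 in edgeR and 0.0302 in DESeq2. RpS3A, a small-subunit gene on chromosome 4, ran from 725 to 1009 CPM (median 801) and from 877 to 1240 CPM (median 995), with a log2 fold change of -0.30 ± 0.10 and an edgeR adjusted p of 0.108. For the same pair the authors' deposited table lists 7 of the 92 genes under a q of 0.05, with RpL10 at 0.00910, among 525 genes.

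In the same comparison, fat body genes had a median of -0.99 with 10 of 13 negative, and the storage protein gene Lsp2 was the only gene of the marker and translation lists to pass in this comparison (log2 -4.74 ± 0.94, edgeR adjusted p 0.0245). Antennal genes had a median of -1.14, with 11 of 11 negative, and summed to 35.7 to 1009 CPM in shocked High and to 449 to 1556 CPM in shocked Mid heads. The 67 short transcripts had a median of -0.16, with 58 negative. The median of the ribosomal protein genes was 0.000743 with the fat body level as a covariate and -0.14 with the short-transcript level. The part of these in the result was not tested.

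Shocked Low heads were also lower than shocked Mid heads, in 82 of 83 genes, with a median of -0.18 beside 0.00409 and 49% negative over all genes. EdgeR called none (0.0195% of all genes), limma voom none and DESeq2 2 (RpS3A and RpS20). The share of all genes that DESeq2 called is not given here. In edgeR 33 members had an unadjusted p under 0.05, against 14% of all genes. RpS3A ran from 664 to 1014 CPM (median 868) in shocked Low heads, with 8 of 9 heads below the shocked Mid median (-0.30 ± 0.09, edgeR adjusted p 0.120). RpS20, from the head of the small subunit, ran from 290 to 542 CPM (median 451) in shocked Low and from 474 to 859 CPM (median 548) in shocked Mid heads, and the ranges overlapped (-0.46 ± 0.14, edgeR adjusted p 0.125). RpL5 of the large subunit had a log2 fold change of -0.28 ± 0.09. The authors' deposited table lists RpS20 (q 0.0360), RpL5 (q 0.0438) and RpS3A (q 0.0453) for this pair, and none of the 92 genes for 7 of its 10 pairs. RpL24-like was the single positive gene, at 0.11 ± 0.09. Fat body genes had a median of -0.76, and with their level as a covariate the ribosomal protein median was 0.007. The antennal genes had a median of -0.55, with 11 of 11 negative.

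Shocked Low against shocked High gave a median of 0.06 with 72 of 83 genes positive beside 53.5% of all genes. EdgeR (0% of all genes), DESeq2 and limma voom called none, and 1 gene had an unadjusted p under 0.05, against 4.4% of all genes. That gene was RpL34b (0.21 ± 0.10), followed by RpL24-like (0.17 ± 0.10) and RpL23 of the subunit interface (0.23 ± 0.14), all with an edgeR adjusted p of 0.998. Without shocked High head 3 the median was 0.17, and without shocked High head 2 it was 0.01. Several of these comparisons share groups of heads, so their values are not independent of each other.

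Over the 5 groups at once, edgeR's F test with 4 degrees of freedom called none of the 83 genes, nor did DESeq2 or limma voom, where edgeR called 0.107% of all genes. There were 13 members with an unadjusted p under 0.05, or about the share of all genes (12.2%). The smallest adjusted p was 0.293, for RpS28b.

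The members moved from head to head as 1 block. The SD of log2 CPM over the 37 heads had a median of 0.22 over the 83 genes, and it fell to 0.096 when each head's summed level of the set was taken out. In 82 of 83 genes the SD around the total was the smaller, against 18.3% of the 10189 other genes and 18.3% of the 630 others whose mean level was above all but the lowest members. Each member is part of that total, at no more than 2.71% of it. In 6 heads none of the 83 genes was above its own median over all heads, namely naive Mid heads 2 and 5, naive High heads 6 and 7 and shocked High heads 1 and 2. In naive High head 1 and shocked Mid head 4 all 83 were above it.

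**Figure D3:**
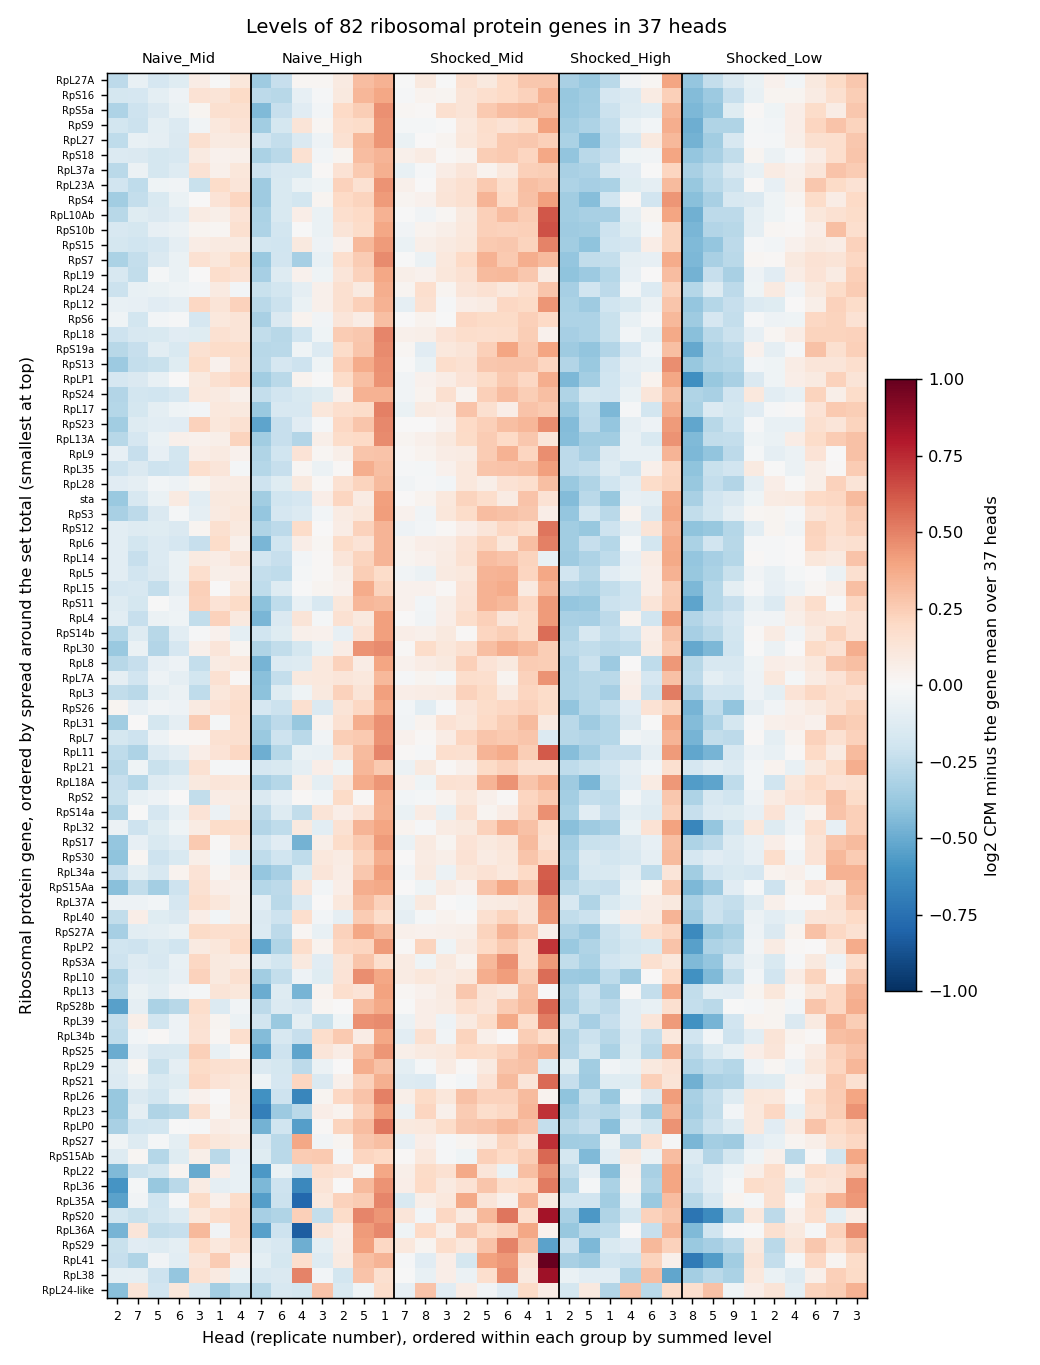
Levels of 82 of the 83 tested genes (rows, ordered by their spread around the set total, smallest at the top) in 37 heads (columns, grouped and ordered by summed level), as log2 CPM minus the gene's mean over all heads (colour scale). Whole columns share a colour, such as naive High head 1 (83 genes above their median) and naive High head 7 (0 genes), while the lowest rows, such as RpL41, RpL38 and RpL24-like, break the pattern in single heads.

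The genes closest to the total were RpL27A (SD around the total 0.053 on the log2 scale), RpS16 (0.055), RpS5a (0.058), RpS9 (0.063) and RpL27 (0.065). RpL27A ran from 635 to 1079 CPM over shocked High heads and from 817 to 989 CPM over shocked Mid heads. RpS16, RpS5a and RpS9 are core proteins of the small subunit. The genes farthest from it were RpL24-like (0.25), RpL38 (0.24), RpL41 (0.21), RpS29 (0.20) and RpL36A (0.19). Over the 83 genes, the SD around the total had a Spearman correlation of -0.479 with mean CPM and of -0.28 with transcript length, given as a description across genes, which are not independent.

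With the set total in place of library size, none of the 83 genes differed over the 5 groups in edgeR's F test, where 0.117% of all genes did. Of the 83, only RpL24-like had an unadjusted p under 0.05 (0.0416, adjusted 0.279), against 17.3% of all genes. The members were scaled by their own sum, whereas the other genes took on its variation. The median SD of those other genes over heads rose from 0.25 to 0.33 on this scale. The shares over all genes are therefore not a like comparison. DESeq2 and limma voom were not run on this scale.

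RpL24-like was the member that departed most from the shared shift. Its counterpart in yeast is an assembly factor that holds the place of RpL24 on the large subunit until late in maturation, and is no part of the finished ribosome. Its share of the set's CPM was 0.206% ± 0.0392 in naive Mid (SD, n = 7), 0.210% ± 0.0313 in naive High (n = 7), 0.202% ± 0.0267 in shocked Mid (n = 8), 0.235% ± 0.0425 in shocked High (n = 6) and 0.251% ± 0.0415 in shocked Low heads (n = 9). Shocked Low heads ran from 0.201% to 0.322% and shocked Mid heads from 0.173% to 0.259%, so the groups overlapped. It was the sole member whose SD over heads rose, from 0.21 to 0.25, when the total was taken out. In CPM its highest group was shocked Low, from 130 through 156 to 177, while naive Mid ran from 104 through 121 to 152.

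The group means of RpS20 leaned in the opposite direction, without an unadjusted p under 0.05 in edgeR's F test on the set total. Its share of the set was 0.832% ± 0.123 in shocked Mid, 0.768% ± 0.0374 in naive Mid, 0.789% ± 0.104 in naive High, 0.747% ± 0.0956 in shocked High and 0.690% ± 0.0851 in shocked Low heads. Its SD over heads, 0.33 on the log2 scale, was the highest of the 83. Its highest level, 859 CPM, was in shocked Mid head 1. RpL38, known in the mouse for a part in patterning the skeleton, was spread by single heads. It was read at 444 CPM in shocked Mid head 1 and 348 CPM in naive High head 4, and at 172 CPM in shocked High head 3, where most other members were high.

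For the pairs of RpS14b, RpS15Ab and RpL34a, the group means of the minor copy's share stayed close, while single heads varied more. RpS14a (chromosome X from 7933742 to 7934677, dm6) and RpS14b (X from 7934898 to 7935792) lie next to each other and encode the same small-subunit protein, and RpS14b took 29.9% ± 1.69 (SD, n = 37) of the counts of the pair, between 28.9% in naive Mid and 30.9% in shocked Mid as group means. Per kilobase, RpS14a averaged 840 and RpS14b 471 CPM. The authors removed reads of mapping quality below 8, which drops reads that align equally well to both copies, so this share rests on the sequence in which the copies differ. RpS15Ab (chromosome 2R) took 4.66% ± 0.526 of its pair with RpS15Aa (chromosome X), and its group means stayed between 4.51% and 4.73%. Over single heads this share ran from 3.70% to 5.71%. RpL34a took 18.4% ± 1.26 of its pair with RpL34b, both on chromosome 3R, with group means from 17.97% to 19%. RpL24-like, set beside RpL24, took 13.7% ± 1.82 in naive Mid, 13.9% ± 1.44 in naive High, 13.7% ± 0.995 in shocked Mid, 15.3% ± 1.71 in shocked High and 15.99% ± 1.65 in shocked Low heads. In the other pairs of the list the major copies RpL7, RpL10Ab, RpL22, RpL37a, RpS5a, RpS10b, RpS19a and RpS28b stood beside copies at or near 0.

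**Figure D4:**
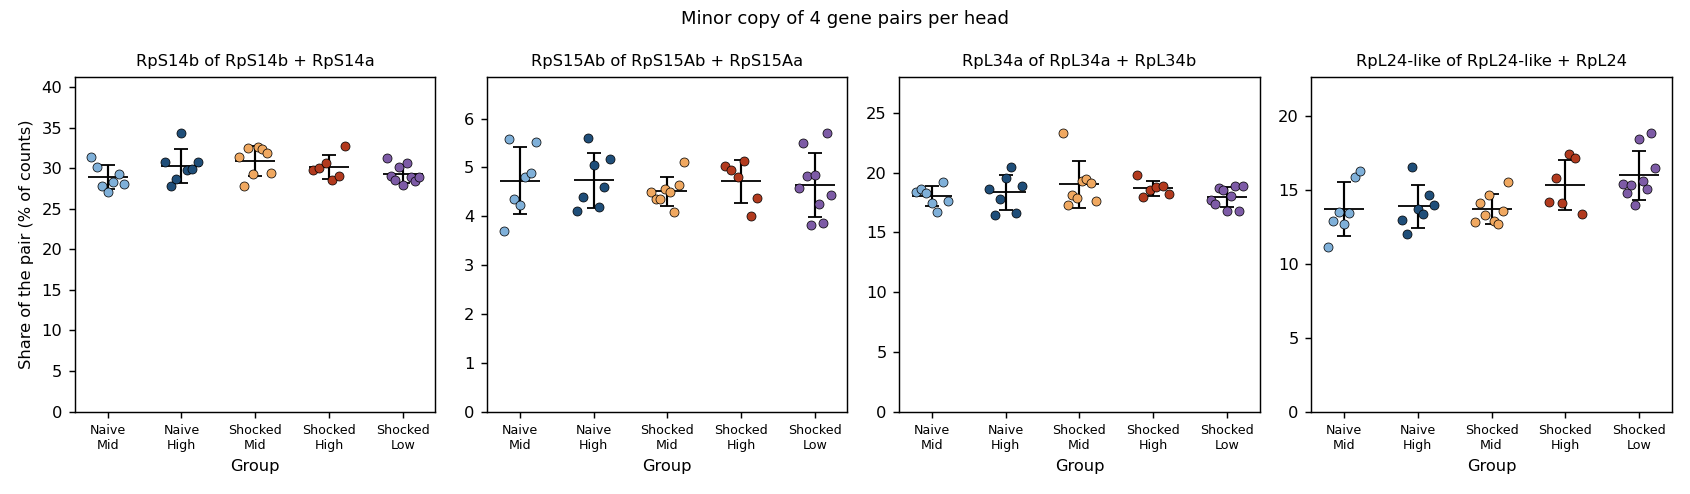
Share of counts of a gene pair that fell on its minor copy, in percent (y axes, each from 0), per head (points) and group (x axes), with the group mean and SD. The group means of RpS14b, RpS15Ab and RpL34a stay near 29.9%, 4.66% and 18.4%, with shocked Mid head 1 apart for RpL34a at 23.3%. RpL24-like averages 15.99% in shocked Low against 13.7% in shocked Mid heads.

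RpLP0, RpLP1 and RpLP2 form the stalk of the large subunit, and sta encodes the small-subunit protein related to the laminin receptor. Within Mid their log2 fold changes after shock were 0.25 ± 0.13, 0.14 ± 0.12, 0.27 ± 0.13 and 0.19 ± 0.11, and within High -0.12 ± 0.14, -0.16 ± 0.13, -0.20 ± 0.14 and -0.15 ± 0.12, none of them passing. RpLP0 ran from 660 CPM in naive High head 4 to 1404 CPM in naive High head 1.

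Naive High head 4 and shocked Mid head 1 stood apart in the mixture of members. The departure of a gene is its log2 share of the set total minus its mean share over all heads, and its SD over the 83 genes was 0.24 in naive High head 4 and 0.26 in shocked Mid head 1, against 0.06 to 0.16 in the other 35 heads. In naive High head 4, 27 genes departed by more than 0.2, of which 12 were low, and in shocked Mid head 1, 33 did, of which 16 were low. They shared 17 of these genes (17 of 27 and 17 of 33), all with the same sign in both. Among the 17 were RpS29 (-0.41 and -0.86), RpLP0 (-0.47 and -0.57), RpL36A (-0.74 and -0.28), RpL41 (0.25 and 0.80), RpL38 (0.58 and 0.52), RpS20 (0.32 and 0.50) and RpS27 (0.47 and 0.40). Outside these heads the departure of RpLP0 ran from -0.163 to 0.153, and at most 18 genes of any 1 head departed by more than 0.2. The total of the set was near the middle in naive High head 4 (60231 CPM, place 24 of 37) and high in shocked Mid head 1 (79953 CPM, place 2). These heads had 6058389 and 6520005 counts, and their weights for quality in limma voom were 0.776 and 0.632 beside 0.387 for the lowest, shocked High head 3. Without both heads, a choice made after seeing the data, the SD around the total was 0.25 for RpL24-like, 0.21 for RpL38, 0.15 for RpL41, 0.12 for RpS29 and 0.13 for RpL36A. After RpL24-like and RpL38, the widest were then RpL22 (0.18), RpS20 (0.16) and RpS15Ab (0.16). Without shocked Mid head 1 the median for shock within Mid was 0.18.

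**Figure D5:**
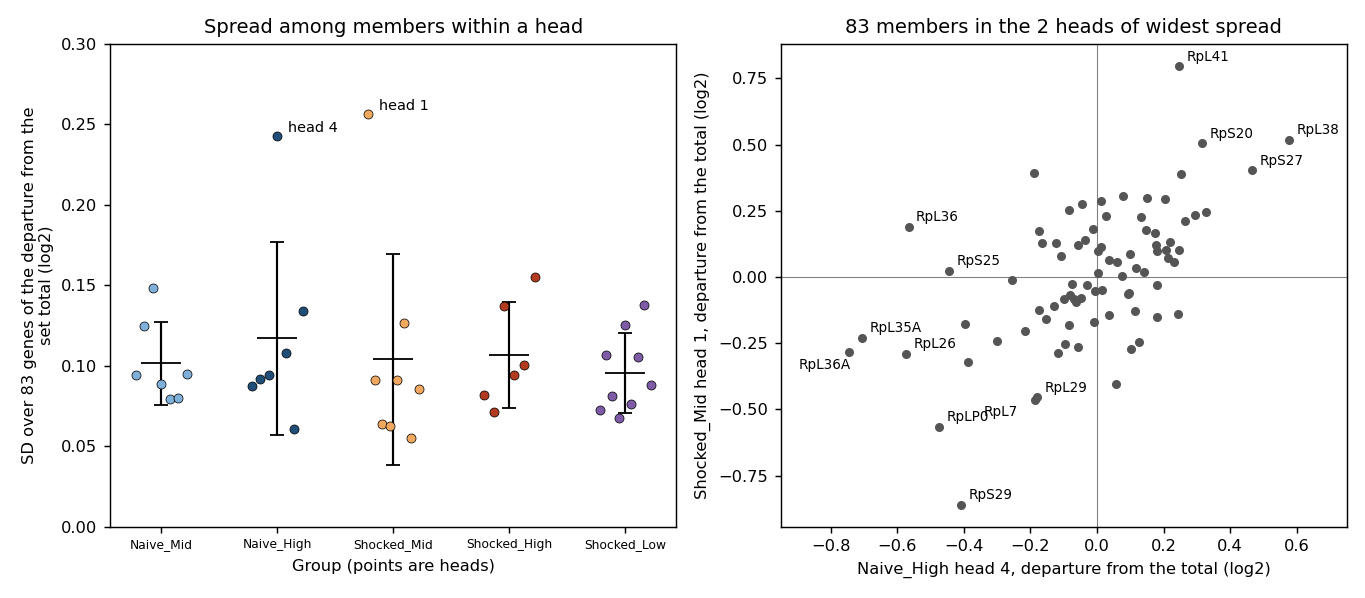
Left, the SD over 83 genes of the departure from the set total (log2, y axis) in each head (points) by group (x axis), with group mean and SD. Right, the departures of the 83 genes (points, log2) in naive High head 4 (x axis) and shocked Mid head 1 (y axis), with the widest named. The 2 heads sit at 0.24 and 0.26 on the left, above 0.16 for the rest, and RpS29 (-0.41 and -0.86) and RpL38 (0.58 and 0.52) lie at opposite corners on the right.

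Other genes of the translation apparatus were read from lists. One list, fixed by name, held elongation and other translation factors of the class with the pyrimidine tract. The tract itself was not examined here. Of its 14 tested genes, 13 were positive for shock within Mid (median 0.20) and 11 were negative within High (median -0.10). In shocked High against shocked Mid 13 were negative (median -0.22). Of 19 initiation factors, 15 were positive within Mid (median 0.08), 9 negative within High (median 0.0056) and 13 negative in shocked High against shocked Mid (median -0.07). The 33 ribosome biogenesis genes had medians of 0.11, 0.05 and -0.07, and the 7 genes of RNA polymerase I, which transcribes ribosomal RNA, 0.02, 0.17 and -0.02. The 72 mitochondrial ribosomal protein genes had medians of 0.02, -0.07 and -0.08 in these comparisons. The 21 growth control genes (0.01, 0.11 and 0.07) and the 12 promoter factors and ribosome stress genes (-0.03, -0.01 and 0.02) lay on both sides of 0. EdgeR called no gene of these lists in these comparisons, and DESeq2 and limma voom were not read for them. In edgeR, 13.1%, 5.66% and 17.5% of all genes had an unadjusted p under 0.05. The 14 translation factors gave 6, 0 and 9 such genes, the 19 initiation factors 3, 1 and 1. The 33 biogenesis genes gave 3, 3 and 4, and the 72 mitochondrial genes 1, 5 and 3. The 21 growth control genes gave 1, 2 and 6. The 12 promoter and stress genes gave 1, 0 and 0, and the 7 of RNA polymerase I 0, 1 and 0.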

How the data were processed

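Counts were deposited by the authors as raw reads per gene for 37 labelled heads. A further 2 labelled shocked High samples without a column are not analysed here, and 2 columns were left aside because no label matches them. Per the series design text, the authors trimmed reads with Trimmomatic, mapped them to dm6 with STAR, removed non-primary alignments and those of mapping quality below 8, and counted exon reads with HTSeq-count. The sources used here give neither versions nor the strand setting. Without strand, 29 of the 92 genes share exon sequence with another gene (24 on the opposite strand) and are uncertain to that extent. The extraction protocol also calls the assay nuclear RNA-seq. The authors' deposited table gives q-values (a kind of p-value) and log2 fold changes from DESeq2, per the file headers.

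Genes were filtered by edgeR's filterByExpr (10272 kept), scaled by TMM, and fitted in 1 quasi-likelihood model of 5 groups, with 7 contrasts and F tests, Benjamini-Hochberg adjusted over all genes at 0.05. Log2 CPM used a prior count of 2. A second F test used the log of the summed counts of the set as offset. DESeq2 and limma voom were alternatives. The fit was tested on simulated data. Fits ran in R 4.3.3 (DESeq2 1.42.0, limma 3.58.1, edgeR 4.0.16). Summaries and plots used matplotlib 3.10.9, pandas 2.3.3, scipy 1.17.1 and numpy 2.4.6 under Python 3.11.15. Lengths and dm6 positions were taken from the Ensembl 115 annotation; 87 of the 92 genes matched by gene ID and 5 by symbol. Members, lists and tests were chosen with earlier results of these data known. Named genes were the 3 with the smallest p per contrast where none passed, all paralogue copies, the stalk genes and sta, and the 5 at each end of spread and of level per length; RpL36 and some genes lettered in the plot of departures fall outside this rule and were chosen after their values were seen. The chi-square per gene between any pair of heads was at least 7.94, so each library is distinct. The labels give 1 batch date, so no batch could be separated. One gene of the set is in the fits and counts but its own values are not reported here.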

Additional observations from a re-analysis of the deposited data

Results flagged for a closer look

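Single heads stood far from the rest of their group for 20 values of named genes, by Dixon's test of the gap to the nearest head over the range of the group, which chance exceeds in about 1 of 20 groups. Over all 83 tested genes and the set's total and share there were 35 such values in 425 pairs of item and group; the genes move together, so these are not independent, and the total itself was not among them. In shocked High head 3, 8 named genes were above the other 5 heads: RpLP0 at 1324 CPM, RpLP2 at 1061, sta at 1597, RpS5a at 761.7, RpS14a at 745.0, RpL7 at 1402, RpL23 at 637.1 and RpL34b at 546.2 CPM. In shocked Mid head 1, RpLP0 was below the other 7 heads, at 822.0 CPM against 1038 to 1219. In the same head 10 named genes were above the others: RpLP2 at 1429 CPM, RpS14b at 396.1, RpL23 at 824.3, RpS9 at 1091, RpS15Ab at 45.13, RpL10Ab at 1050, RpS27 at 985.2, RpL34a at 173.6, RpL41 at 1016 and RpS10b at 1349 CPM. In shocked Low head 3, RpS15Ab was above the other 8 heads at 39.5 CPM.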

How the results depend on the processing

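Counts of called members were 0 in every comparison under every setting run, with these exceptions. For shocked High against shocked Mid, limma voom with quality weights called 47 members lower, DESeq2 3 and edgeR with a replicate block 21, and leaving out 1 head at a time gave 0 to 34, the 34 without shocked High head 3. For shocked Low against shocked Mid, DESeq2 called 2. The shares of all genes called under these settings are not given here, so the counts cannot be read as particular to the set. The median log2 fold change moved by more than the SD within groups in 2 cases, both with the fat body level as a covariate: to -0.059 for the interaction and to 0.000743 for shocked High against shocked Mid. Moves smaller than that SD are not counted here. Among them are those given above with the same covariate within Mid, within High and for shocked Low against shocked Mid. Within High the sign of the median changed. The cause was not tested. With 1 head left out at a time, the median ran from 0.176 to 0.240 for shock within Mid, from -0.234 to -0.072 within High, from -0.425 to -0.268 for the interaction, from 0.026 to 0.143 for naive High against Mid, from -0.344 to -0.207 for shocked High against Mid, from -0.221 to -0.154 for shocked Low against Mid and from 0.012 to 0.168 for shocked Low against High. Library totals alone gave 0.165 within Mid and -0.072 within High.

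Replicate numbers did not pair the heads: over 67 pairs of heads with the same number the median correlation was 0.018, 17 pairs exceeded 0.1, and 7 of 37 heads matched best with a head of their own number. Besides the 21 genes above, the replicate block called none. Members were read at mean levels from 30.6 to 1742 CPM, and with the log2 total count of the library as a covariate none was called in the 7 contrasts or over the 5 groups.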

Other observations

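Within a head, the departures of the 83 members from the set total were ordered by transcript length to a differing degree. The Spearman correlation across the 83 genes, given as a description, ran from -0.553 in naive Mid head 3 to 0.502 in naive Mid head 6. In naive Mid head 3 the 5 members with transcripts under 500 bases had a median departure of 0.16 and the 14 of 1000 bases or more one of -0.17 on the log2 scale. In the heads with the widest departures the correlation was small, at 0.037 in naive High head 4 and -0.131 in shocked Mid head 1. The medians of the short and long members were nevertheless 0.18 and -0.10 in shocked Mid head 1. In naive High head 4 they were -0.01 and 0.025.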
